A study of Homo sapiens with 4 samples.

Results

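The JAK kinases, the STAT transcription factors and the SOCS inhibitors form the relay by which most cytokine receptors reach the nucleus. A receptor that binds its cytokine brings its JAK kinases together, the kinases phosphorylate the receptor and the STATs docked on it, and the STATs move to the nucleus and switch on their target genes. The SOCS genes are among those targets, and their proteins block or degrade the active receptor and kinase, so that their transcript level is often read as a record of recent STAT activity. RNA abundance does not measure phosphorylation, which is the step that turns the relay on.

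The 10 genes described here are JAK1, JAK2, TYK2, STAT3, STAT5A, STAT5B, STAT6, SOCS1, SOCS2 and SOCS3, taken by gene name from the 60623 genes of the deposited table. All 10 were found as 1 entry each, and all 10 were among the 14810 genes that passed the filter on low counts. The 4 libraries were made from T24, a widely used human bladder cancer cell line. In the scramble group (2 libraries) the cells received a scramble control, and in the miR-146a-5p group (2 libraries) they were made to overexpress miR-146a-5p, by a mimic according to the study's description. The design asks which transcripts change when this microRNA, known as a brake on NF-kB signalling, is raised. Whether replicates were grown apart is not stated, and every p-value here therefore reflects the spread among 4 libraries, of which a share may be technical.

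Total estimated counts were between 20290055 and 22774090 per library. Of the 6 epithelial markers read, the keratins KRT7, KRT8 and KRT18 were abundant in every library. KRT19 had 713 and 969 counts in scramble and 340 and 294 in miR-146a-5p libraries (DESeq2 adjusted p = 0.0692, edgeR adjusted p = 0.970). EPCAM had between 19 and 32 counts, and the adhesion gene CDH1 had between 0 and 2. The 7 leukocyte markers summed to between 12.7 and 17.3 CPM per library, most of it from CD68, and the T cell markers CD3D and CD3E had 0 counts in all 4. IRAK1, a textbook target of miR-146a-5p, had 11155 and 16314 counts in the scramble libraries and 2329 and 2217 in the miR-146a-5p libraries. Its level fell 5.59-fold (DESeq2 adjusted p = 5.11e-09, edgeR adjusted p = 0.728). Scramble replicate 2 stood apart from scramble replicate 1, and 23.3% of tested genes differed more than 2-fold between them, against 2.62% between the miR-146a-5p libraries.

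The mature microRNA is shown because the first question about any of these transcripts is whether it can pair with it. Its seed, bases 2 to 8, is in capitals, and the sequence is from RefSeq (GRCh38.p14), where it lies on chromosome 5 from 160485372 to 160485393 on the plus strand. A transcript pairs with the whole seed through AGTTCTC in its 3' untranslated region. GTTCTCA, which lacks the pair with base 8 and ends in an A, was counted as a site too. IRAK1 carries 2 AGTTCTC sites, each followed by an A. SOCS2 is the 1 gene of the 10 whose longest coding transcript in GENCODE release 29 (GRCh38) carries a site. Capitals in the transcript sequences mark the pairing bases.
hsa-miR-146a-5p: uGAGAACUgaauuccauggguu
IRAK1 site, chrX:154011812-154011819, minus strand: ggaagtcaaAGTTCTCAtggtcagaa
IRAK1 site, chrX:154011796-154011803, minus strand: atggtcagaAGTTCTCAtggtgcacg
SOCS2 site, chr12:93573764-93573770, plus strand: agagggaaaAGTTCTCtcgcttgcg

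The SOCS2 site lies in 1 of 9 coding transcripts of that gene with an annotated 3' untranslated region, the one in which that region is 3000 bases long. STAT5A had a site, of either form, in 1 of 5 coding transcripts, and not in its longest. No coding transcript of JAK1, JAK2, TYK2, STAT3, STAT5B, STAT6, SOCS1 or SOCS3 in that annotation had one. Among tested genes with such a region, 21% had a site of either form in the longest coding transcript. The counts are per gene and do not show which transcript of SOCS2 or STAT5A these cells made.

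No member of the relay was called changed. By edgeR's quasi-likelihood test 0 of 10 members passed an adjusted p of 0.05, where 0% of all tested genes did, and 0 of 10 had an unadjusted p under 0.05, against 3.71% of all tested genes. By DESeq2 0 of 10 passed, against 0.313% of genes (0.264% higher and 0.0491% lower), and none had an unadjusted p under 0.05. Log2 fold changes of miR-146a-5p over scramble ran from -0.34 for SOCS2 to 0.35 for JAK1, with a median of -0.09, beside a median of -0.0014 over all tested genes. JAK1, STAT6 and SOCS2 had an absolute value over 0.3, as did 42% of all tested genes. In CPM (counts scaled by library total and TMM factor) both miR-146a-5p libraries lay above both scramble libraries for 1 member, below both for 3 members and overlapped for 6. Such a separation held for 18% of all tested genes in each direction, and for 36% in either. The authors' deposited table also lists none of the 10 as significant, with log2 fold changes between -0.36 and 0.33.

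**Figure D1:**
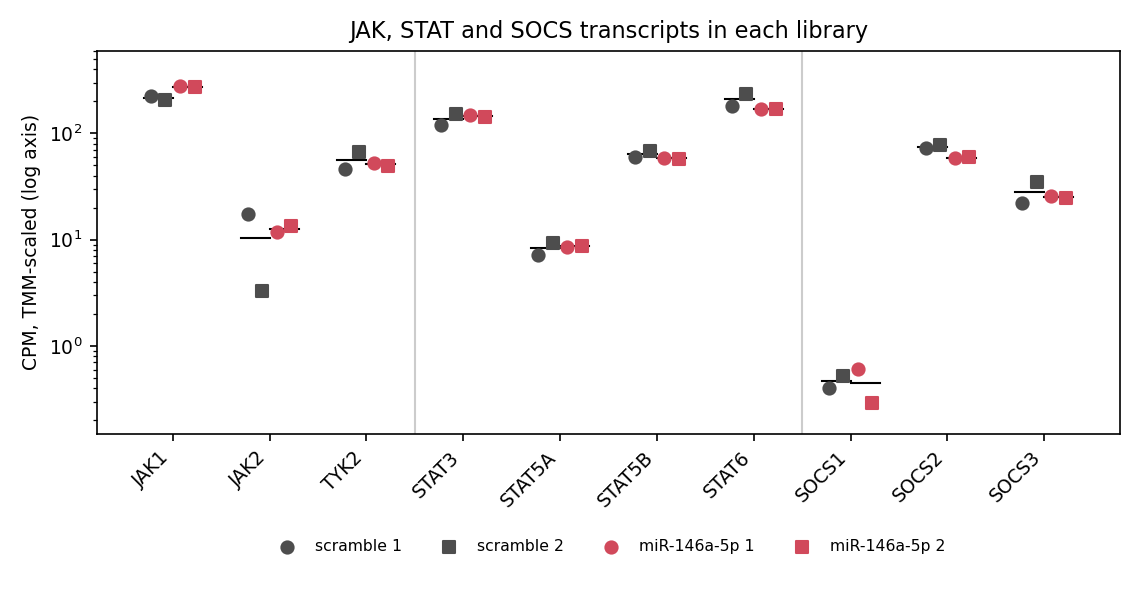
Level of each member in each library, in CPM on a log axis, with scramble libraries in grey, miR-146a-5p libraries in red, replicate 1 as circles, replicate 2 as squares and the group means (n = 2) as short bars. JAK1 lies higher and SOCS2, STAT5B and STAT6 lie lower in both miR-146a-5p libraries, and JAK2 is far lower in scramble replicate 2 (3.29 CPM) than in the other 3 libraries.

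Among the kinases, JAK1 was the most abundant and JAK2 the scarcest. JAK1, which serves the interferon, IL-6 and common gamma chain receptors, had 70.05 and 57.23 TPM in the scramble libraries and 81.29 and 80.89 TPM in the miR-146a-5p libraries (TPM, the authors' transcript abundance per length and library, is the unit in which levels of different genes are compared here). In CPM it had 226 and 205 against 278 and 271, so both miR-146a-5p libraries were above both scramble libraries. The ratio of means was 1.27 and the log2 fold change 0.35 ± 0.16 (SE), which did not pass (edgeR adjusted p = 0.970, unadjusted p = 0.0873). Its gene (ENSG00000162434) lies on chromosome 1 from 64833229 to 64966504 (GRCh38).

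TYK2, the partner kinase at interferon and IL-12 family receptors, had 46.6 and 67.0 CPM in scramble and 53.1 and 49.2 CPM in miR-146a-5p libraries. The groups overlapped, with scramble replicate 1 lowest and scramble replicate 2 highest (log2 fold change -0.15 ± 0.26, edgeR adjusted p = 0.970).

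JAK2, the kinase of the growth hormone, erythropoietin and GM-CSF receptors, had 389 and 75 counts in scramble and 255 and 274 counts in miR-146a-5p libraries. In CPM this was 17.4 and 3.29 against 11.9 and 13.4. The scramble libraries therefore differed 5.28-fold, with the miR-146a-5p libraries between them, while the miR-146a-5p libraries differed 1.13-fold. The log2 fold change of 0.29 ± 0.81 had the largest standard error of the 10 and an edgeR adjusted p of 0.972. Against scramble replicate 1 alone it was -0.44, and against scramble replicate 2 alone it was 1.94. The direction of JAK2 is thus set by which scramble library it is compared with.

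Among the STAT factors, STAT6 and STAT3 made up most of the message. STAT6, which carries IL-4 and IL-13 signals, had 183 and 237 CPM in scramble and 171 and 168 CPM in miR-146a-5p libraries, below both scramble libraries in both. Its log2 fold change was -0.31 ± 0.20 and did not pass (edgeR adjusted p = 0.970). The value was -0.48 without scramble replicate 1 and -0.09 without scramble replicate 2. STAT3, the factor of the IL-6 family, had 120 and 154 CPM against 148 and 143 CPM, with the miR-146a-5p libraries between the scramble libraries (log2 fold change 0.09 ± 0.20, edgeR adjusted p = 0.972). In TPM, STAT3 was 38.86 and 42.49 in scramble and 45.08 and 44.06 in miR-146a-5p libraries, so there the groups did not overlap.

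STAT5A and STAT5B, close copies that answer prolactin, growth hormone and IL-2 family cytokines, differed in level by far. STAT5B had 60.2 and 68.8 CPM in scramble and 58.7 and 57.8 CPM in miR-146a-5p libraries, slightly below both (log2 fold change -0.15 ± 0.19, edgeR adjusted p = 0.970). STAT5A had 7.25 and 9.34 CPM against 8.52 and 8.77 CPM, with the groups overlapping (log2 fold change 0.06 ± 0.25, edgeR adjusted p = 0.980). Estimated counts of both were fractional in every library, and STAT5A held between 10.75% and 13.18% of their joint counts. With both genes summed before the fit the log2 fold change was -0.12 ± 0.20. On chromosome 17 (GRCh38) STAT5B, STAT5A and STAT3 are neighbours, with 10839 bases between STAT5B and STAT5A and 1380 bases between STAT5A and STAT3. None of the 3 passed.

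Among the SOCS inhibitors, SOCS2 was the most abundant and SOCS1 was near the floor. SOCS2, a brake on growth hormone receptor signalling, had 1622 and 1762 counts in scramble and 1258 and 1218 in miR-146a-5p libraries, or 72.5 and 77.4 against 58.8 and 59.6 CPM. Both miR-146a-5p libraries were below both scramble libraries, which for this gene differed only 1.07-fold from each other. The ratio of means was 0.790 and the log2 fold change -0.34 ± 0.19, which did not pass (edgeR adjusted p = 0.970, unadjusted p = 0.135). It was -0.39 without scramble replicate 1 and -0.28 without scramble replicate 2.

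SOCS3, the inhibitor induced by IL-6 family cytokines through STAT3, had 22.2 and 34.6 CPM in scramble and 25.97 and 24.96 CPM in miR-146a-5p libraries. The scramble libraries lay on either side of the miR-146a-5p libraries (log2 fold change -0.16 ± 0.29, edgeR adjusted p = 0.970). SOCS1, the inhibitor induced by interferon-gamma, had 9 and 12 counts in scramble and 13 and 6 in miR-146a-5p libraries. Exact Poisson 95% intervals for these counts cover counting error only. They ran from 4.12 to 17.1 and from 6.2 to 21 in the scramble libraries. In the miR-146a-5p libraries they ran from 6.92 to 22.2 and from 2.20 to 13.1, and every interval overlapped the others. The log2 fold change between the groups was -0.04 ± 0.58, which at these counts does not tell a rise from a fall.

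Some members overlap the span of a gene on the other strand, and the counting is not stated to use strand. Spans include introns, and whether exons overlap was not examined. The antisense transcript SOCS2-AS1 overlaps SOCS2 by 1955 bases and had between 98 and 162 counts, and LRP1, with between 2372 and 3124 counts, overlaps STAT6 by 3647 bases. SOCS1 lies wholly within the span of RMI2, which had between 284 and 365 counts. Whether reads from such partners were counted for a member cannot be told from these data.

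Ordered by mean TPM over the 4 libraries, the members ran from JAK1 (72.4 TPM) and STAT6 (71.6 TPM) through SOCS2 (48.8), STAT3 (42.6), TYK2 (37.7), STAT5B (16.3), SOCS3 (12.7), STAT5A (3.36) and JAK2 (3.13) to SOCS1 (0.54 TPM). JAK1 and STAT6 exceeded 88.0% and 87.9% of tested genes in mean TPM, and SOCS1 exceeded 7.11%. Neighbours in this order whose ranges over the 4 libraries overlapped were JAK1 and STAT6, SOCS2 and STAT3, STAT3 and TYK2, and STAT5A and JAK2. The other neighbours kept their order in all 4 libraries. STAT6 gave 55.69% and 56.83% of the TPM of the 4 STAT members in scramble and 49.77% and 51.11% in miR-146a-5p libraries, while STAT3 gave 29.82% and 28.65% against 35.01% and 34.35%. JAK2 gave 4.01% of the kinase TPM in scramble replicate 1 and 0.709% in scramble replicate 2.

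Counts and TPM did not move in step for every member. Counts divided by TPM, scaled for library, give the relative length that the authors' 2 values imply for a gene. For SOCS3 this length was the same in all 4 libraries (1.00 of its mean in each). For JAK2 it was 1.10, 1.09 and 1.10 of the mean in scramble replicates 1 and 2 and miR-146a-5p replicate 2, and 0.714 in miR-146a-5p replicate 1. For STAT5A it ranged from 0.811 to 1.23, and for TYK2 it was 0.893 in miR-146a-5p replicate 2 against 0.996 to 1.06 elsewhere. For these 3 genes the miR-146a-5p libraries differed from each other in this length. For STAT5A the scramble libraries differed too, at 1.23 and 0.845, against 0.811 and 1.12 in the miR-146a-5p libraries. SOCS2 had 1.06 and 0.920 in scramble and 0.970 and 1.05 in miR-146a-5p libraries. The cause was not tested.

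The difference between the scramble libraries moved with GC content, and the members are spread over that range. When tested genes with a transcript in GENCODE release 29 were split into 10 groups by the GC content of their longest transcript, the median log2 difference of scramble replicate 2 minus replicate 1 was -1.76 in the group of lowest GC content and 0.57 in the highest. The miR-146a-5p libraries differed by medians between -0.06 and 0.09 in the same groups. JAK2, with 39.2% GC, is in the group with a median of -1.27 and differed by -2.37. JAK1 (46.2% GC) differed by -0.14 and SOCS2 (47.3% GC) by 0.09, in a group with a median of 0.06. SOCS3 (59.99% GC) differed by 0.64 and TYK2 (61.3% GC) by 0.52, where the median was 0.47. Over the 10 members Spearman's rho between GC content and this difference was 0.77 and Pearson's r was 0.71, given as a description of genes that share the same libraries.

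**Figure D2:**
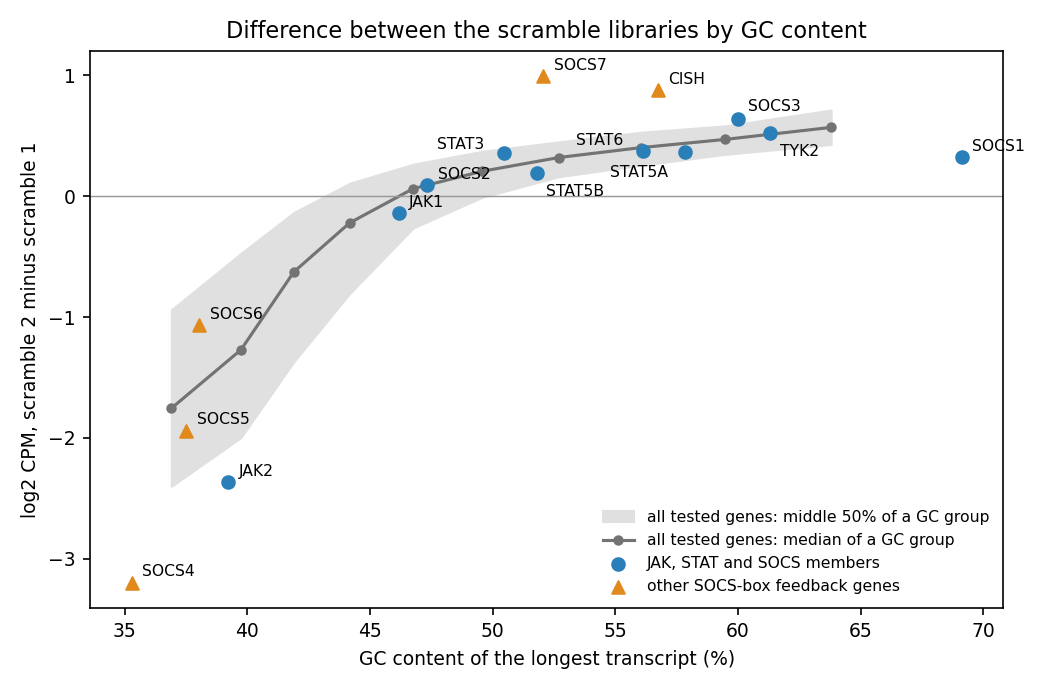
Log2 CPM of scramble replicate 2 minus scramble replicate 1 against the GC content of the longest transcript, for the members (blue circles) and the other SOCS-box feedback genes (orange triangles). The grey line joins the medians of 10 groups of all tested genes, from -1.76 to 0.57, with the interquartile range of each group shaded, and JAK2, SOCS4 and SOCS5 lie near -2 or below.

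With per-library offsets for GC content and length in the edgeR fit, the standard errors of all 10 members became smaller and 0 of 10 passed (0% of genes passed). SOCS2 had the lowest unadjusted p, 0.0179 (log2 fold change -0.35 ± 0.09, edgeR adjusted p = 0.356). JAK1 followed with 0.0302 (0.29 ± 0.09, edgeR adjusted p = 0.395). An unadjusted p under 0.05 was seen for 11.3% of all genes in that fit. The value of STAT6 was -0.20 ± 0.09 and that of JAK2 was 0.11 ± 0.36. SOCS3 and TYK2, at 0.01 ± 0.11 and 0.02 ± 0.10, changed sign and were close to 0.

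Leaving out 1 scramble library made many genes pass, under the assumption that the remaining scramble library varies as the miR-146a-5p pair does. Without scramble replicate 1, 7 of 10 members passed edgeR (JAK1 and JAK2 higher, TYK2, STAT5B, STAT6, SOCS2 and SOCS3 lower), where 54.9% of all genes did (28.5% higher and 26.4% lower). Without scramble replicate 2, 4 of 10 passed (JAK1 and STAT3 higher, JAK2 and SOCS2 lower), where 21.7% of genes did (10.1% higher and 11.7% lower). JAK1, STAT5B, STAT6 and SOCS2 had the same sign both times, and the other members, JAK2 among them, changed sign. How many of all tested genes passed both times with the same sign was not counted. JAK1 and SOCS2, which did so, are therefore not shown to stand apart from other genes. Both fits use the same miR-146a-5p libraries. Without miR-146a-5p replicate 1 or replicate 2, 0 of 10 members passed, against 0.0776% and 0.0517% of genes, and with the replicate number as a block 0 of 10 passed, against 0.0338%.

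**Figure D3:**
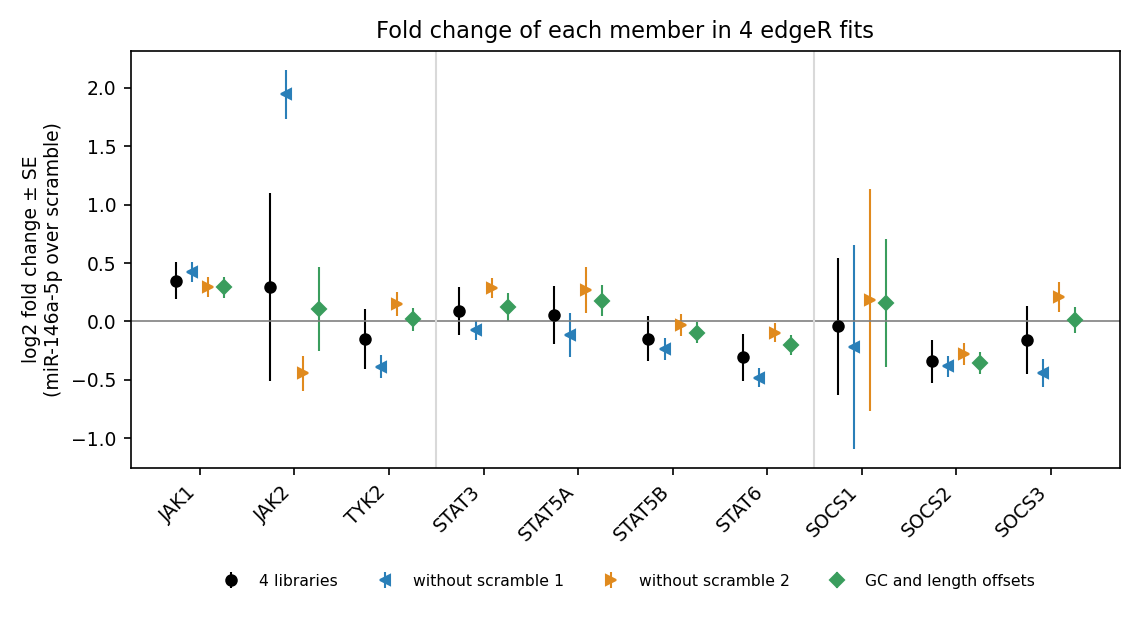
Log2 fold change of miR-146a-5p over scramble with its standard error for each member in 4 edgeR fits, with all 4 libraries (black), without scramble replicate 1 (blue), without scramble replicate 2 (orange) and with GC and length offsets (green). JAK1 stays between 0.29 and 0.42 and SOCS2 between -0.39 and -0.28, while JAK2 runs from -0.44 to 1.94.

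Other genes of the pathway were read from lists drawn up from general knowledge, but with earlier results of these data known. No set test was run. STAT2, a factor of the type I interferon response, had 747 and 867 counts in scramble and 789 and 724 in miR-146a-5p libraries and did not pass (log2 fold change 0.02 ± 0.20). JAK3, the lymphocyte kinase, had at most 1.11 counts in a library, and STAT4 had 4 and 5 counts against 7 and 13. Both stayed out of the test.

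Of the other SOCS-box feedback genes, 0 of 5 passed edgeR or DESeq2 and all 5 overlapped between groups, where 36% of all tested genes did not overlap. SOCS4 had 1478 and 162 counts in scramble and 862 and 934 in miR-146a-5p libraries, and SOCS5 had 1733 and 458 against 1333 and 1291. Like JAK2, these are GC-poor transcripts (35.3% and 37.5% GC), lowest in scramble replicate 2. SOCS6 (38.0% GC) had 1207 and 586 counts against 1131 and 1189. With GC and length offsets the log2 fold changes were 0.06 for SOCS4, 0.03 for SOCS5 and -0.06 for SOCS6. SOCS7 was at -0.64 ± 0.42, and at -0.65 with the offsets. CISH, the STAT5-induced member of the family, had 7 and 15 counts against 13 and 14. Its log2 fold change was 0.41, and 0.53 with the offsets.

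Of 41 listed cytokines that signal through JAKs 12 were tested. By DESeq2 3 rose with 0 lower, where 0.264% of all genes rose and 0.0491% fell. As the list was chosen with earlier results known, this count describes the list and is not a test of it. By edgeR 0 were called and 4 had an unadjusted p under 0.05, against 3.71% of all tested genes. CSF2, the cytokine GM-CSF, rose from 15 and 20 counts to 254 and 247 (DESeq2 adjusted p = 4.87e-13). CSF3, the cytokine G-CSF, rose 5.07-fold, from 504 and 827 counts to 3154 and 3084 (DESeq2 adjusted p = 7.02e-06). IL6 rose from 119 and 144 counts to 653 and 550 (DESeq2 adjusted p = 1.84e-07). Each of the 3 was higher in 2 of 2 miR-146a-5p libraries than in both scramble libraries, the same libraries on which it was called. LIF, an IL-6 family cytokine, went from a mean of 185 ± 43.6 to one of 322 ± 12.4 CPM (SD, n = 2 each) and did not pass. Over the 12 ligands both miR-146a-5p libraries lay above both scramble libraries for 5 and below both for 2, and 5 overlapped. Of all tested genes 18% were separated in each direction and 36% in either. The list median was 0.24, and 0.0811 with GC and length offsets.

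Of 41 listed receptors for such cytokines, 20 were tested and 0 passed edgeR or DESeq2, with a median of 0.22. Of the 20, 8 were separated upwards, 3 downwards and 9 not at all, where 18% of all tested genes were separated in each direction. IL6ST, OSMR and IL4R are also in the list of STAT3-responsive genes below. IL6R, the IL-6 binding chain, had 5.002 ± 0.690 CPM with scramble and 2.21 ± 0.61 CPM with miR-146a-5p (SD over 2 libraries each), below both in both (log2 fold change -1.18 ± 0.33, edgeR adjusted p = 0.970). OSMR, the oncostatin M receptor, had 89.4 ± 8.03 and 121 ± 5.85 CPM, IL13RA1 had 77.9 ± 6.66 and 97.8 ± 0.0235 CPM, and the decoy receptor IL13RA2 had 2.80 ± 0.786 and 1.30 ± 0.381 CPM (SD, n = 2 each). IL6ST, the signal chain gp130 shared by the IL-6 family and named here after its values were seen, had 7244 and 1020 counts in scramble against 7246 and 7341 (log2 fold change 0.92 ± 0.93, and 0.73 with GC and length offsets). Its scramble replicate 2 was the 1 low library, and its transcript has 36.6% GC.

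Among genes that respond to STAT factors, none passed edgeR or DESeq2. In the STAT3 list 24 of 34 genes were tested, the median was 0.18, and 9 were separated upwards, 4 downwards and 11 not at all, where 18% of all tested genes were separated in each direction. VEGFA, the vascular growth factor, had 64.8 ± 9.96 and 111 ± 4.59 CPM and JUNB had 17.1 ± 5.18 and 25.8 ± 1.34 CPM (SD, n = 2 each). MCL1, a survival factor, had 408 ± 32.9 and 494 ± 20.6 CPM (SD, n = 2 each). Among genes of the list that were lower, BCL6, FOS, PIM1 and MYC had log2 fold changes of -0.45, -0.38, -0.37 and -0.31. The acute-phase genes LCN2 and SAA1, named after their values were seen because they have the largest fitted values of the list, were low in all libraries. LCN2 had 4 and 0 counts with scramble and 35 and 28 with miR-146a-5p, and SAA1 had 1 and 5 against 16.27 and 28, and neither passed. Both genes respond to NF-kB as well as to STAT3. In the STAT5 list 9 of 14 genes were tested (median 0.06), with 3 separated upwards, 4 downwards and 2 not at all. BCL2L1, BCL6, CCND1, PIM1 and PIM2 are in both the STAT3 and the STAT5 list. ID1 had 188 ± 46.7 and 277 ± 22.8 CPM, NMI had 19.6 ± 5.41 and 26.1 ± 2.01 CPM, and PIM1 and BCL6 lay below both scramble libraries at 7.95 ± 0.176 and 5.42 ± 0.395 CPM against 10.3 ± 2.19 and 7.39 ± 2.10 CPM (SD, n = 2 each).

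In the STAT6 list 4 of 18 genes were tested (median 0.07). PPARG, a nuclear receptor of the urothelium, had 913 and 1035 counts against 615 and 574, and IL4R, the IL-4 receptor chain, had 798 and 1124 against 1244 and 1093. The transglutaminase TGM2 had 18887 and 27004 counts against 18556 and 17302.

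Inhibitors outside the SOCS family did not pass either (15 of 19 tested, median 0.11). PTPN1, the phosphatase that dephosphorylates JAK2 and TYK2, had 4944 and 5691 counts in scramble and 3620 and 3405 in miR-146a-5p libraries, below both in both (log2 fold change -0.49 ± 0.17, edgeR adjusted p = 0.970). PTPN6, the phosphatase SHP-1, had 110 and 165 against 226 and 206, DUSP22 had 330 and 415 against 239 and 239, and PTPN12 had 2986 and 976 against 2855 and 2844 counts. Of 16 SOCS-box ubiquitin ligase genes 15 were tested (median -0.04) and 0 passed. WSB2 was the 1 of these with an unadjusted edgeR p under 0.05, against 3.71% of all tested genes. It had 99.5 ± 18.5 CPM with scramble and 57.9 ± 3.10 CPM with miR-146a-5p (SD, n = 2 each). RBX1, WSB1 and ASB1 were at 0.25, 0.31 and -0.23 on the log2 scale.

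**Figure D4:**
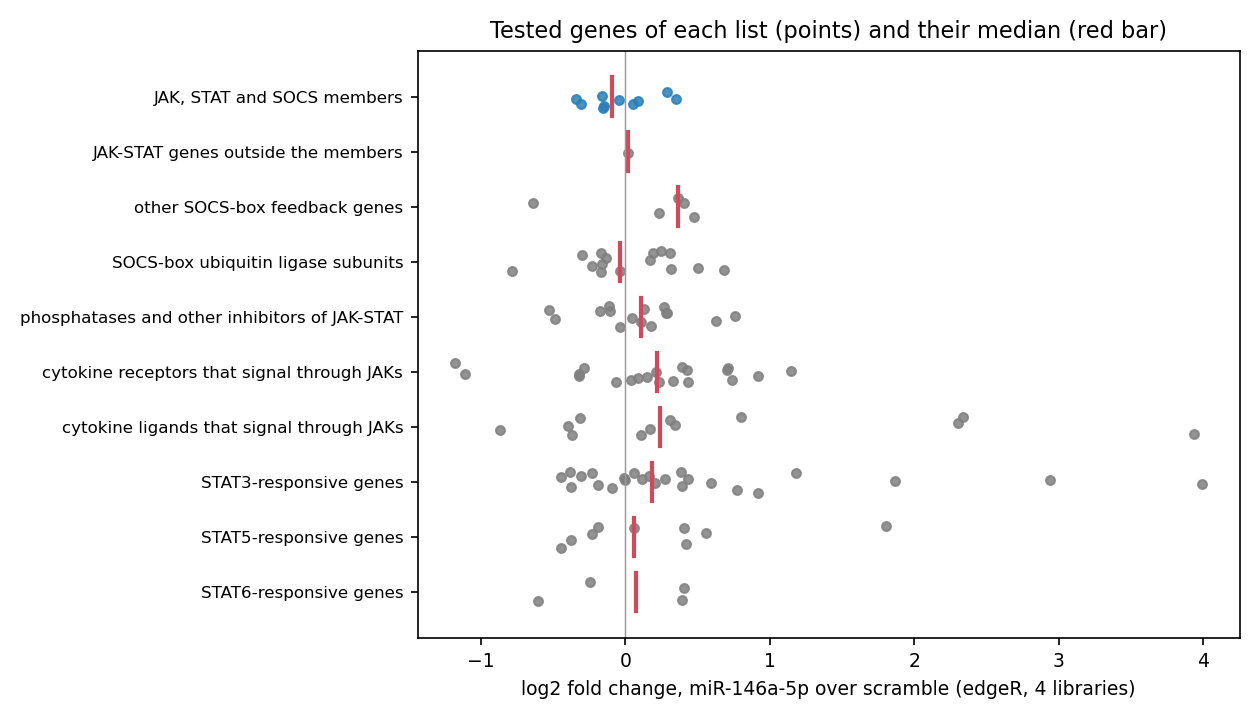
Log2 fold change of miR-146a-5p over scramble (edgeR, 4 libraries) for each tested gene of the members and of 9 pathway lists, with the list median as a red bar. The members lie between -0.34 and 0.35, and the points at or beyond 2 are the ligands CSF2, CSF3 and IL6 and the low-count STAT3-responsive genes LCN2 and SAA1.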

How the data were processed

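RNA was measured in 4 libraries, grouped by their titles, which match the treatment in the labels. Per the submitters' processing notes the tools were cutadapt (1.9.1), HISAT2 (2.0.1), HTSeq (0.6.1) and DESeq2, on hg19, and roles and annotation release are not given in the sources used here. An estimated count and a TPM per gene and library were deposited, with 34.3% of counts fractional (by more than 0.005) among genes seen in every library. HTSeq by itself gives whole counts, and no source says which tool made the fractional ones. Per the file headers the table also has the authors' fold ratio, log2 fold change, p-value and adjusted p-value. The authors' TPM sum to between 974940 and 980673 per library.

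Rounded counts were tested with edgeR 4.0.16 (R 4.3.3), by a two-sided quasi-likelihood test of group, with TMM and filterByExpr (minimum count 10, minimum total 15). P-values were adjusted by Benjamini-Hochberg over 14810 genes, with a threshold of 0.05. Standard errors were derived from the F statistic. DESeq2 1.42.0 (filtering target 0.1) and limma 3.58.1 on log2 TPM were alternatives. GC and length offsets came from smooth trends per library (mgcv) over GENCODE release 29 transcripts, which 14679 tested genes have.

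Genes named are the 10 members, up to 4 per list with the smallest edgeR p and a mean of at least 1 CPM, any list gene called by edgeR or DESeq2, and IRAK1. Outside this rule the text also names JAK3, STAT4, CISH, cell type markers and genes that overlap a member. IL6ST, LCN2 and SAA1 were named after their values were seen. Genes with a profile like a member's were to be named only for members with an absolute log2 fold change above 1, and 0 members had one. The members and lists were chosen with earlier results of these data known. Some genes and gene lists are not reported here. Seed matches were searched in the 3' untranslated region of coding transcripts. Coordinates are 1-based, from GRCh38, and none of the authors' build was used.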

Additional observations from a re-analysis of the deposited data

How the results depend on the processing

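No member passed with 4 libraries under DESeq2 size factors, no filter on low counts, the DESeq2 test, limma on log2 TPM, GC and length offsets or the replicate block. The log2 fold change of JAK2 was 0.29 in the main fit and 0.72 ± 0.62 with the replicate block. By limma it was 1.01 ± 0.90 with 0.1 added to the TPM and 0.65 ± 0.62 with 1 added. DESeq2 called 51 genes, 3 of them listed ligands. No label ties a replicate number to a shared culture, and same-numbered libraries had deviations correlated at -0.145. The replicate block called 5 genes, 1 of them a listed ligand, and the crossed pairing, added after seeing the data, called 0. With GC and length offsets SOCS1, SOCS3 and TYK2 changed sign, to 0.156, 0.0132 and 0.0192, and to 0.0676, 0.0146 and 0.0191 with the replicate block as well. The offsets moved list medians to 0.0811 for ligands (0.102 with the block) and -0.0309 for phosphatases and other inhibitors (-0.0323 with the block). The cause was not tested.

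Leaving out 1 library at a time gave 8 to 8421 genes and 0 to 7 members called. Log2 fold changes that changed sign ranged from -0.445 to 1.94 for JAK2, -0.638 to 0.383 for SOCS1, -0.441 to 0.211 for SOCS3, -0.0767 to 0.290 for STAT3, -0.115 to 0.266 for STAT5A and -0.387 to 0.148 for TYK2. Genes called ranged from 0 to 4 for other SOCS-box feedback genes, 0 to 11 for SOCS-box ligase subunits, 0 to 10 for phosphatases and other inhibitors, 0 to 12 for receptors, 1 to 7 for ligands, and 0 to 19, 0 to 6 and 0 to 2 for genes responsive to STAT3, STAT5 and STAT6. In that order of lists, medians ranged from -0.0382 to 1.11, -0.161 to 0.170, -0.0715 to 0.119, 0.145 to 0.278, 0.182 to 0.366, -0.0670 to 0.342, -0.163 to 0.174 and -0.247 to 0.347. Each of these lists reached its highest count of called genes without scramble replicate 1, a fit in which most of all tested genes were called. Whether any list exceeded that share was not tested, and the counts are not read as results of the pathway. For JAK3, STAT2 and STAT4, of which STAT2 alone passed the filter with 4 libraries, 0 genes were called and the median of those that passed ranged from 0.0459 to 0.832.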
